A study of Mus musculus with 2 samples.

Results

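Single-cell RNA sequencing had been carried out on the dissected cardiac neural crest region of C57BL/6 mouse embryos at E9.5, and the nuclear-encoded genes of the respiratory chain and of ATP synthase were examined in it. These were all columns whose symbol begins with Nduf, Uqcr, Cox4i, Cox5, Cox6, Cox7, Cox8 or Atp5, and 86 of the 18131 genes in the tables met this rule. Embryos of the WT library had the genotype Prdm6+/+; Wnt1-Cre2; ZsGreen1. Those of the KO library carried the floxed alleles, Prdm6f/f; Wnt1-Cre2; ZsGreen1. Both groups therefore carried Wnt1-Cre2, a transgene that drives Cre in the Wnt1 lineage including the neural crest, and the ZsGreen1 fluorescent reporter. Cells outside that lineage were captured too, and in these Prdm6, which encodes a PR domain protein of the histone methyltransferase family, is not a target of Cre. The data held 1 library per genotype, with no map from cells to embryos, so no test was possible and a difference between genotypes cannot be told apart from a difference between libraries. The methods of the study also describe a batch effect between the conditions. The question addressed was how the subunits of each complex were distributed over cell types and over the 2 genotypes.

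Complex I (NADH dehydrogenase), complex III (cytochrome bc1) and complex IV (cytochrome c oxidase) pass electrons from NADH to oxygen and pump protons across the inner mitochondrial membrane, and complex V (ATP synthase) uses the gradient to make ATP. The catalytic centers of complexes I, III and IV contain subunits encoded by mitochondrial DNA, whereas the subunits described here are made from nuclear genes and imported. Most of the nuclear subunits are small accessory proteins around those centers. Several complex IV subunits exist as a widespread isoform and as an isoform known from heart and skeletal muscle, and the heart is known for its high content of mitochondria.

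The 86 genes comprised 36 complex I subunits, 8 complex I assembly factors (Ndufaf), 8 complex III subunits, 16 complex IV subunits, 15 complex V subunits, the pair Ndufa4 and Ndufa4l2, and Atp5s, a coupling factor of ATP synthase that is not a stable subunit. Ndufa4 was named as a complex I subunit and was later placed with complex IV, so it was kept apart. The isoforms Cox7b2 and Cox8c were not analysed here. In all, 84 genes had at least 200 unique molecular identifiers (UMIs) over both libraries, and Cox8b and Ndufa4l2 had fewer.

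The WT library held 11958 cells and 20781384 UMIs with a median of 1597 per cell. In KO there were 9765 cells and 18936857 UMIs, with a median of 1703. Prdm6 had 104 UMIs in WT and 59 in KO (log2 ratio -0.68, interval -1.17 to -0.21), and a 3′ UMI does not show which other parts of the gene its transcript holds. The libraries shared 26 cell barcodes. Mitochondrially encoded genes had 0 columns in the tables. Levels are UMIs per 1000000 UMIs (CPM) of a library or of a cell class in it, with exact Poisson intervals of 95%. These totals are smaller than those sequenced, since the authors had removed mitochondrial and ribosomal UMIs. Ratios of KO over WT are log2 values with exact conditional binomial intervals. All intervals cover counting error only. A 3′ UMI counts a transcript molecule whatever its length, so CPM values of different genes were compared without dividing by length. Reads of subunits with close paralogs or processed pseudogenes may have been split or lost in counting, and such levels are uncertain.

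Respiratory chain transcripts were present in every cell, and the 5 with most UMIs encoded subunits of complex IV and ATP synthase. The 86 genes together had 650145 UMIs in WT and 688178 in KO. This was 3.13% and 3.63% of the deposited UMIs, which lack the mitochondrial and ribosomal UMIs removed by the authors. The median cell had 47 member UMIs in WT and 60 in KO, and 0 cells had none in either library. Cox7c, a small membrane subunit of complex IV, had the most UMIs over both libraries together, with 1002 CPM in WT and 1446 CPM in KO, although in WT alone Atp5g1 and Atp5b were higher. Atp5g1, which encodes the c subunit of the rotating ring of ATP synthase, had 1186 CPM in WT and 1214 CPM in KO. Atp5b, the catalytic beta subunit of ATP synthase, had 1126 CPM in WT and 1134 CPM in KO. Of these 3 genes Cox7c was 1.44-fold higher in KO and Atp5g1 1.02-fold higher, and the interval of Atp5b included 0.

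Next in level were Cox8a, Atp5g3, Ndufa4, Uqcrb, Atp5e, Atp5o-1 and Cox4i1, which ranged from 756 to 958 CPM in WT and from 807 to 1142 CPM in KO. Atp5o-1 is the name in the tables for Atp5o, the stalk subunit that confers oligomycin sensitivity. The annotation holds 2 overlapping genes of that symbol on chromosome 16, and which of them was counted is not given in the sources used here. At the low end of the subunits were the tissue isoforms. Cox4i2 had 6.30 CPM in WT and 6.92 CPM in KO. Cox8b had 2 UMIs in WT and 4 in KO. The assembly factors, which build complex I and do not stay in it, together had 475 CPM in WT and 548 CPM in KO, far below the 9232 and 10716 CPM of the complex I subunits.

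Over all cells the summed level of every complex was higher in the KO library than in the WT library. The 86 genes together had 31285 CPM in WT (interval 31209 to 31361) and 36341 CPM in KO (36255 to 36427), a log2 ratio of 0.22 (0.21 to 0.22). Complex III had 3647 CPM in WT and 4479 CPM in KO (log2 ratio 0.30, interval 0.28 to 0.31). Complex IV had 6659 CPM in WT and 8180 CPM in KO (0.30, 0.29 to 0.31). Among the 4 complexes, III and IV thus stood furthest apart between the libraries.

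Complex I had 9232 CPM in WT and 10716 CPM in KO (log2 ratio 0.21, interval 0.21 to 0.22). Complex V differed least among the complexes, with 10357 CPM in WT and 11296 CPM in KO (0.13, 0.12 to 0.13). Without Uqcrb, the complex III member with most UMIs, the ratio of that complex was 0.21, and without Cox7c that of complex IV was 0.25. Both ratios were therefore lowered by leaving out 1 abundant subunit, and complex III then stood at the level of complex I.

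Of the 84 genes with at least 200 UMIs, 20 were at least 25% higher in KO and 0 were at least 20% lower, which is the same fold in either direction. Among all 10513 genes with as many UMIs, 3.86% were at least 25% higher and 10.6% at least 20% lower. The median log2 ratio was 0.19 over the members and -0.06 over all genes. The interval lay above 0 for 57 members, below 0 for 11, and included 0 for 16. Over all 10513 genes it lay above 0 for 16.9% and below 0 for 29.1%. The 20 comprised 9 complex I subunits, 3 of complex III, 6 of complex IV, 1 of complex V and 1 assembly factor. With either of 2 other scalings of the libraries the count was 31, and over all genes the share was 6.73% with the median of ratios and 6.48% with the trimmed mean.

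The 5 members with the highest ratios were 4 subunits of complexes I, III and IV and 1 assembly factor. Uqcrb, a subunit of complex III that lies near its ubiquinone site, had 15718 UMIs in WT and 21624 in KO, which was 756 and 1142 CPM (log2 ratio 0.59, interval 0.56 to 0.62). Ndufa5, an accessory subunit of the peripheral arm of complex I, had 221 CPM in WT and 325 CPM in KO (0.56, 0.50 to 0.61). Cox7c followed at 0.53 (0.50 to 0.55). Of these, Ndufa5 and Cox7c were higher in KO in 12 of 12 cell classes described below, and Uqcrb in 11.

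Cox6c, another small complex IV subunit, had 678 CPM in WT and 954 CPM in KO (0.49, 0.46 to 0.53). Ndufaf2, an assembly factor that acts late in the building of complex I, had 97.3 CPM in WT and 136 CPM in KO (0.48, 0.40 to 0.57). Cox6c and Ndufaf2 were also higher in KO in 12 of 12 classes. With Atp5l and Cox7a2, 6 members were higher in KO in every class, beside 0.923% of all genes with at least 200 UMIs.

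The members with the lowest ratios came from complexes I and III, after Atp5s. Atp5s had 255 UMIs in WT and 187 in KO (12.3 and 9.87 CPM, log2 ratio -0.31, interval -0.59 to -0.04). Uqcrc2, a core protein of complex III, had 3117 UMIs in WT and 2375 in KO, or 150 and 125 CPM (-0.26, -0.34 to -0.18). Its partner Uqcrc1 had 357 CPM in WT and 313 CPM in KO (-0.19, -0.24 to -0.14). Uqcrc2 was lower in KO in 12 of 12 classes and Uqcrc1 in 8 of 12.

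Ndufs1, the largest iron-sulfur subunit of complex I, had 84.98 CPM in WT and 74.1 CPM in KO (log2 ratio -0.20, interval -0.30 to -0.10). It was lower in KO in 11 of 12 classes. Uqcrfs1, the Rieske iron-sulfur protein of complex III, was also lower (210 and 187 CPM, -0.17, -0.23 to -0.10). Atp5d and Atp5f1 of ATP synthase, with Uqcrc2, were the 3 members lower in KO in every class, beside 0.894% of all genes.

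Subunits of the same complex therefore differed in the sign of their ratio. The 7 nuclear-encoded core subunits of complex I, such as Ndufs1, Ndufs7 and Ndufv1, which hold the flavin and the iron-sulfur clusters or line the quinone site, summed to 1025 CPM in WT and 992 CPM in KO (log2 ratio -0.05, interval -0.08 to -0.02). The 29 accessory subunits summed to 8208 CPM in WT and 9724 CPM in KO (0.24, 0.24 to 0.25). Of the core subunits 5 were below 0 and 2 above, with a median of -0.02, and of the accessory subunits 27 were above 0 and 2 below, with a median of 0.24. The median over all genes with at least 200 UMIs was -0.06. Within ATP synthase the 7 stalk and membrane subunits stood at 0.19 (0.18 to 0.20), the 5 subunits of the F1 head at 0.08 (0.07 to 0.10) and the 3 ring genes at 0.08 (0.06 to 0.10). All 7 core subunits of complex I had coding lengths of at least 600 bases, from 636 (Ndufs8) to 2181 (Ndufs1). Most accessory subunits were shorter, so role and coding length cannot be told apart there. These groupings by role were made after the values had been seen.

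**Figure D1:**
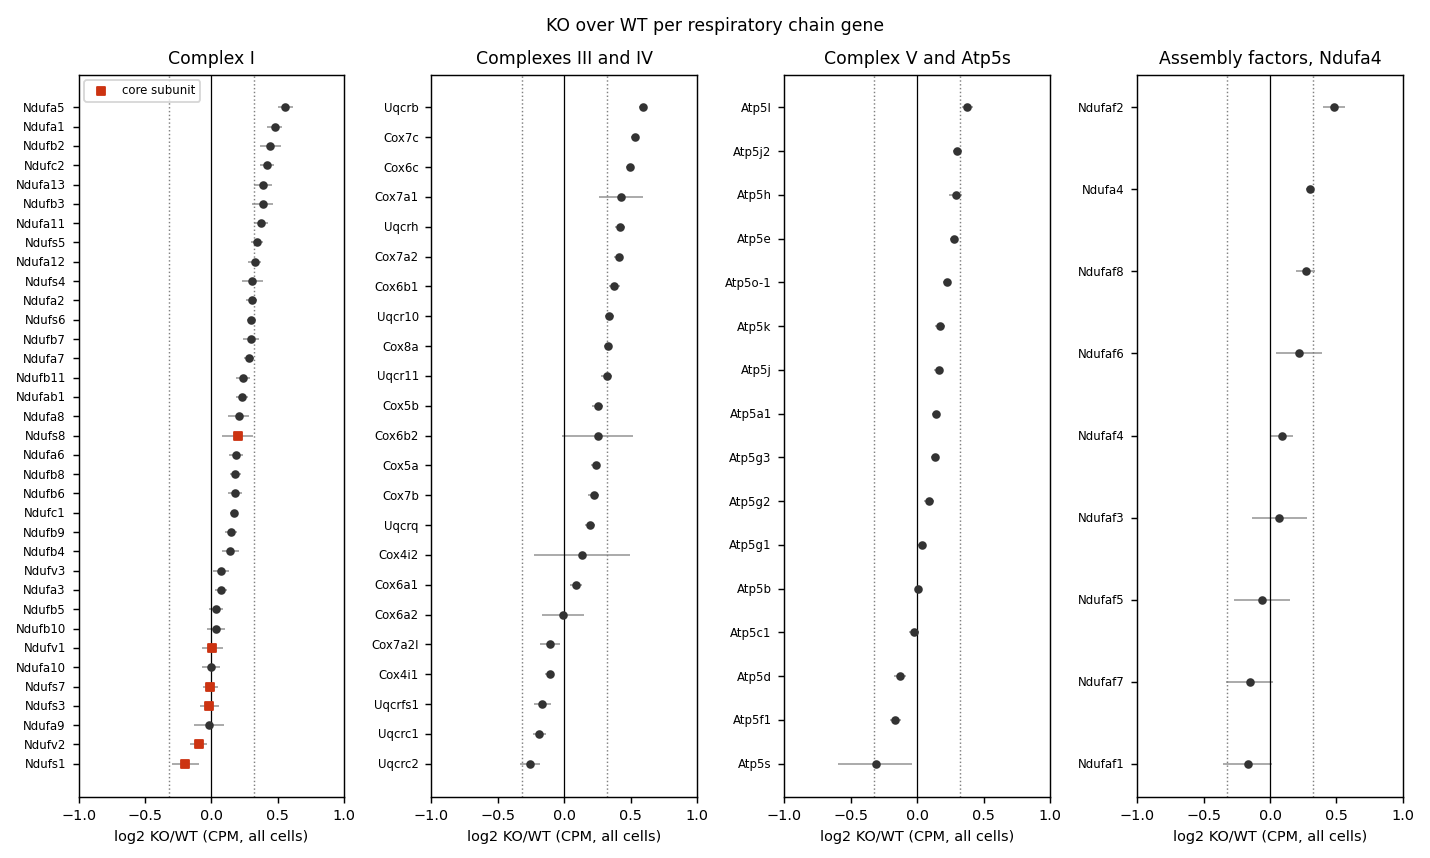
Log2 ratio of KO over WT (CPM over all cells, x axis) for members with at least 200 UMIs, grouped by complex; points are ratios, bars are counting intervals of 95%, red squares are core subunits of complex I and dotted lines mark 25% higher and 20% lower. The core squares sit between -0.20 and 0.20, whereas 27 of 29 accessory subunits lie above 0.

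The members with high and low ratios also differed in coding length. All 20 members at least 25% higher in KO had a coding length under 600 bases, with a median of 310.5 bases, against 430.5 bases over all members with enough UMIs and 768 bases over the 11 members whose interval lay below 0. The 61 measured members with shorter coding sequences had a median log2 ratio of 0.27, and the 23 longer members had a median of -0.03. Summed, the longer members had 6214 CPM in WT and 6251 CPM in KO, whereas the shorter members had 25071 CPM in WT and 30090 CPM in KO. Spearman's rho of the log2 ratio with coding length was -0.68 over the 84 members and 0.03 over 10124 other genes, given as a description of genes that share both libraries.

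Among other genes, those with the shortest transcripts also had a median above 0, whereas those with short coding sequences did not. The 1291 other genes with coding lengths under 600 bases had a median of -0.01, with 90 (6.97%) at least 25% higher in KO and 119 at least 20% lower. Among other genes with transcripts under 600 bases, 24 of 120 (20.0%) were at least 25% higher in KO, with a median of 0.14, and 9 were at least 20% lower. Of the 28 members in that length range 12 (42.9%) were at least 25% higher, with a median of 0.30. For transcripts of 600 to 1000 bases the shares were 22.2% of 27 members and 6.604% of 530 other genes, of which 35 were higher and 40 lower. The part of transcript length in the difference between the libraries was not tested. Lengths are those of the principal transcript in GENCODE vM21, and the length relation was noticed after the values had been seen.

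**Figure D2:**
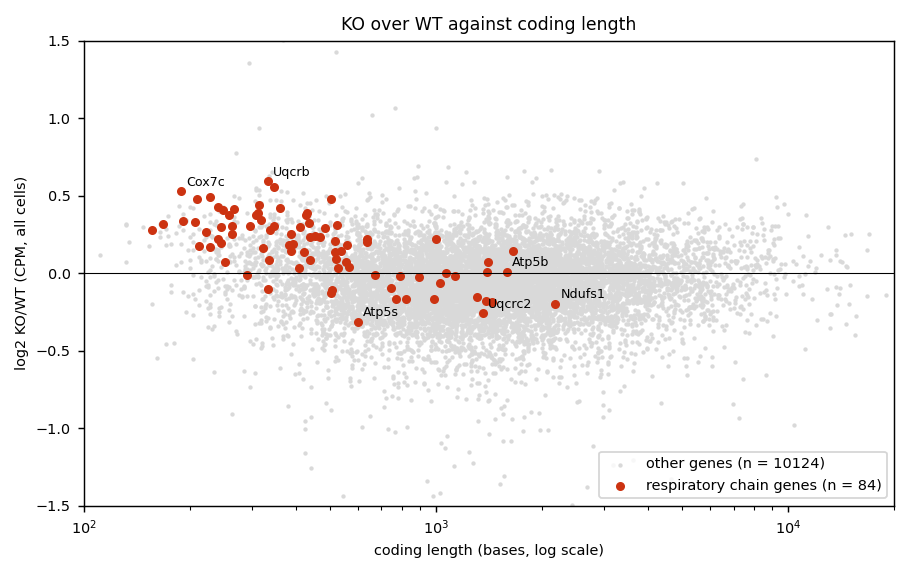
Log2 ratio of KO over WT (CPM over all cells, y axis) against coding length in bases (x axis, log scale) for 84 respiratory chain genes (red) and 10124 other genes (grey), of which 14 lie outside the plotted range. Red points under 600 bases lie mostly above 0, with a median of 0.27, and longer ones scatter around -0.03.

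Cell types were gated by fixed marker lists, and 12 classes had at least 40 cells in each library. These ranged from 40 to 645 cells in WT and from 57 to 592 in KO, and 72.7% of WT and 75.9% of KO cells stayed outside every class. The leading genes of each class included at least 4 of its own markers, such as Smpx, Myl4, Ttn and Myl7 in cardiac muscle, Klf1 and Gata1 in erythroid cells, Cdh5 and Tie1 in endothelial cells, and Sox10 and Foxd3 in migrating neural crest. Median depth was 2372 UMIs in WT and 3132 in KO for cardiac muscle, and 2433 and 2959.5 for migrating neural crest. Every one of the 12 classes was deeper in the KO library.

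Cardiac muscle cells, the contracting cells of the embryonic heart tube, had the highest summed level of every complex in both libraries. The 86 genes had 44774 CPM in WT cardiac muscle (interval 44444 to 45106) and 58047 CPM in KO (57592 to 58505). Erythroid cells, which at this stage are nucleated primitive cells, came second, with 33139 CPM in WT and 40219 CPM in KO. Endothelial cells followed, with 31182 CPM in WT and 36720 CPM in KO. In both libraries the intervals of these 3 classes did not overlap one another or those of the class below.

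The other 9 classes lay close together. In WT they ran from surface ectoderm at 29490 CPM down to arch mesenchymal neural crest at 25848 CPM, and each neighbour in that order overlapped the next. Migrating neural crest had 28802 CPM in WT and 31120 CPM in KO. Arch mesenchymal neural crest was the lowest class in both libraries, with 27479 CPM in KO. Its 40 WT cells gave 2757 member UMIs, so its interval was wide (24892 to 26831 CPM).

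The ratio of KO over WT was above 0 in every class, and its interval lay above 0 in 11 of 12. It was highest in cardiac muscle (log2 ratio 0.37, interval 0.36 to 0.39), followed by erythroid (0.28, 0.26 to 0.30), pharyngeal endoderm (0.24, 0.19 to 0.29), endothelial (0.24, 0.21 to 0.26) and neural tube progenitor cells (0.23, 0.21 to 0.25). It was 0.11 (0.08 to 0.14) in migrating neural crest and 0.09 (0.02 to 0.16) in arch mesenchymal neural crest. The floor plate had 27974 CPM in WT and 28746 CPM in KO (0.04, -0.02 to 0.09). Cells outside every class stood at 0.23 (0.22 to 0.23). In 2 classes the sign depended on the gate: with markers counted after thinning the ratio was -0.01 in surface ectoderm and -0.05 in sclerotome and paraxial mesoderm.

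Transcripts of gated cell types were also found in cells outside every class, where free RNA and cells just under a gate cannot be told apart. The embryonic globin Hbb-y had 2516 CPM in WT and 1310 CPM in KO among cells outside every class, and the cardiac light chain Myl7 had 354 and 373 CPM there. The part of depth and of free RNA in the class ratios was not tested. Over all cells of 1000 to 3000 UMIs the ratio was 0.21 for the 86 genes and 0.27 for complex IV, the latter below its interval over all cells, and 2 members were at least 20% lower in KO, beside 14.4% of all genes.

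The complexes did not share a ratio within classes. Complex IV was above 0 with its interval in 12 of 12 classes, from 0.13 in sclerotome and paraxial mesoderm to 0.54 (0.51 to 0.57) in cardiac muscle, where it had 9999 CPM in WT and 14516 CPM in KO. With markers counted after thinning the ratio in sclerotome and paraxial mesoderm was -0.24. In pharyngeal endoderm complex IV had 5728 CPM in WT and 7953 CPM in KO (0.47, 0.36 to 0.58). Complexes I and III had intervals above 0 in 10 classes each. Complex V did so in 7, and was at -0.02 (-0.08 to 0.03) in migrating neural crest and at -0.07 (-0.17 to 0.02) in the floor plate.

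The core subunits of complex I had no class with an interval above 0 and 4 classes with an interval below 0. In migrating neural crest they had 989 CPM in WT and 761 CPM in KO (log2 ratio -0.38, interval -0.57 to -0.19). In pharyngeal endoderm they had 992 CPM in WT and 750 CPM in KO (-0.40, -0.72 to -0.09). In cardiac muscle they had 1441 CPM in WT and 1448 CPM in KO (0.01, -0.09 to 0.10), while complex I as a whole stood at 0.38 there. The summed interval of the members with coding lengths under 600 bases was above 0 in 12 of 12 classes, and that of the longer members in 0, with 2 classes below 0. The longer members include all core subunits of complex I.

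**Figure D3:**
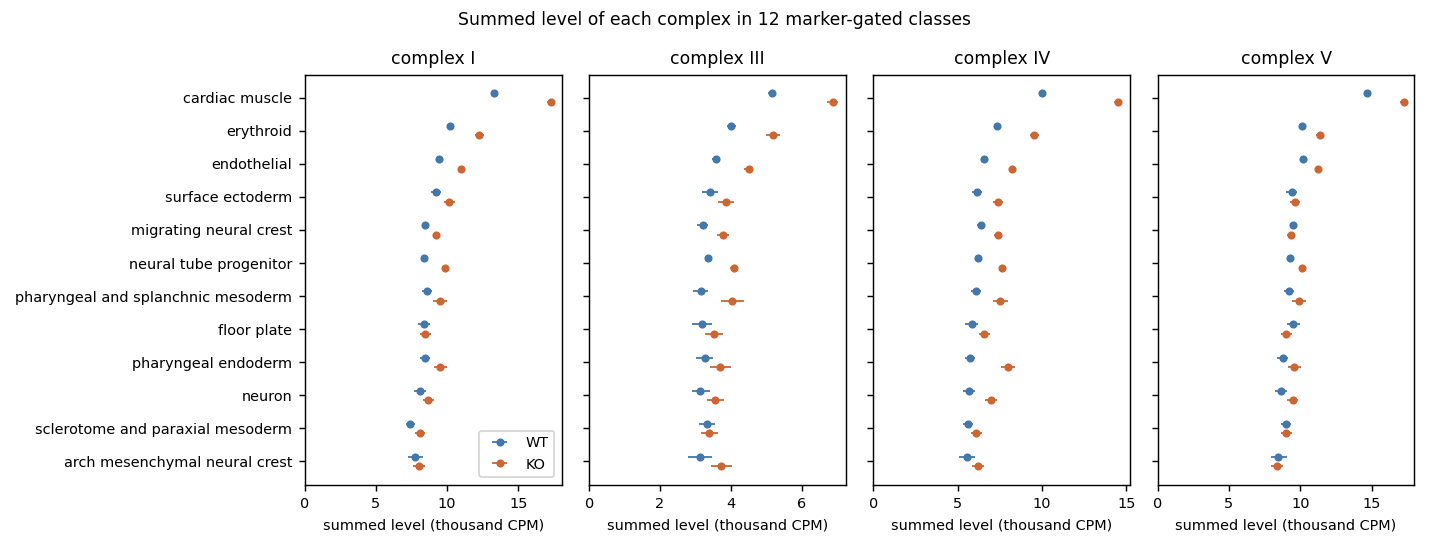
Summed level of each complex (x axis from 0, in units of 1000 CPM) in 12 marker-gated classes (y axis), WT in blue and KO in orange; points are levels and bars are exact Poisson intervals of 95%. Cardiac muscle is the highest class for all 4 complexes, and its complex IV level is 9999 CPM in WT and 14516 CPM in KO.

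Cardiac muscle cells were then compared with all other cells of their library. The 86 genes were 1.48-fold higher in cardiac muscle in WT (log2 0.57, interval 0.56 to 0.58) and 1.66-fold higher in KO (0.73, 0.72 to 0.74). By complex the fold in WT was 1.57 for complex IV, 1.50 for complex I, and 1.47 for complexes III and V. In KO it was 1.86 for complex IV and between 1.58 and 1.67 for the others. Assembly factors showed a smaller fold, 1.21 in WT and 1.19 in KO.

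At least 1.5-fold higher in cardiac muscle were 32 of 83 members with enough UMIs in WT (38.6%) and 44 of 82 in KO (53.7%). Cox6a2 in both libraries and Cox7a1 in WT reached the minimum of 200 UMIs only through cardiac muscle, so these had to differ. The background was 10.6% of 9194 genes in WT and 10.8% of 8765 genes in KO. At least 1.5-fold lower were 1 member in each library, Cox6b2, against 19.6% of genes in WT and 25.8% in KO. With 1 marker more or fewer in the gate the KO count was 0. The median log2 fold of the members was 0.52 in WT and 0.65 in KO, and that of all genes was -0.19 and -0.26. The lists shared 30 members, which was 93.8% of the WT list and 68.2% of the KO list.

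Among members with at least 200 UMIs in WT, the 2 furthest above the rest were the muscle isoforms described below. After them came Ndufa6, an accessory subunit of complex I, with 621 CPM in WT cardiac muscle and 271 CPM in all other WT cells (2.29-fold) and 2.40-fold in KO. Ndufb9, of the membrane arm, had 862 CPM in WT cardiac muscle and 377 CPM elsewhere (2.29-fold) and 2.26-fold in KO. Atp5o-1 had 1636 CPM in WT cardiac muscle and 749.7 CPM elsewhere (2.18-fold in both libraries). The complex I members Ndufb8, Ndufa8, Ndufb10 and Ndufs7 were between 1.92-fold and 1.97-fold higher in WT. Cox4i2, with 131 UMIs in each library, was below the minimum. It stood at 4.28-fold in WT (log2 2.10, interval 1.49 to 2.67) and 2.83-fold in KO.

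Ndufaf5, an assembly factor that modifies a core subunit of complex I, was 1.94-fold higher in WT cardiac muscle and 2.21-fold in KO. Core subunits spread widely: Ndufs7 was 1.92-fold higher in WT, whereas Ndufv1 was 1.06-fold higher. In KO, Ndufv1 stood at 0.908-fold. Uqcrb, the member with the highest ratio between libraries, was 1.21-fold higher in cardiac muscle in WT and 1.18-fold in KO. Ndufaf2 was lower in cardiac muscle than elsewhere, at 0.743-fold in WT and 0.773-fold in KO.

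**Figure D4:**
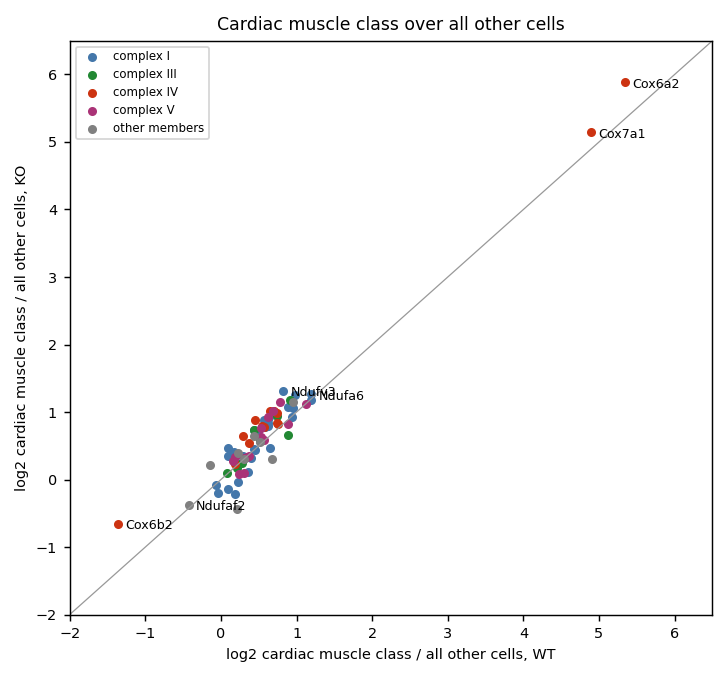
Log2 fold of the cardiac muscle class over all other cells in WT (x axis) and in KO (y axis) for 82 members, colored by complex, with the line of equal folds in grey. Cox6a2 and Cox7a1 lie apart at the upper right, Cox6b2 lies at the lower left, and 60 of 82 members have the larger fold in KO, as do 44.9% of the 8719 genes with at least 200 UMIs in each library.

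The isoforms of complex IV known from muscle were found in the cardiac muscle class. Cox6a2, the heart and skeletal muscle form of subunit VIa (chromosome 7, 128205435 to 128206387, minus strand, GRCm38), had 525 of its 683 WT UMIs and 482 of its 618 KO UMIs there. This was 334 CPM in WT and 450 CPM in KO cardiac muscle, against 8.23 CPM and 7.61 CPM in all other cells. It made up 36.8% of the Cox6a UMIs in WT cardiac muscle (Clopper-Pearson interval 34.3% to 39.4%) and 41.1% in KO (38.2% to 43.9%). The widespread form Cox6a1 supplied the remainder, and the intervals of the 2 libraries overlapped.

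Cox7a1, the muscle form of subunit VIIa (chromosome 7, 30184144 to 30186078, plus strand, GRCm38), had 249 CPM in WT cardiac muscle and 428 CPM in KO. Its share of the Cox7a1 and Cox7a2 UMIs was 24.1% in WT (22.04% to 26.3%) and 23.7% in KO (21.8% to 25.7%). The intervals of the 2 shares overlapped. Of single cardiac muscle cells, 39.1% had a Cox7a1 UMI in WT and 56.8% in KO. After each cell had been thinned to 1000 UMIs the values were 20.7% and 29.4%.

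Outside cardiac muscle both muscle isoforms were near the level of free cardiac RNA. Cox6a2 in the 11 other classes had 1.41% of its cardiac level in WT and 0.989% in KO, and Cox7a1 had 2.47% and 1.89%. Sarcomere transcripts that those classes should lack ranged from 1.09% (Smpx) to 6.70% (Actn2) of their cardiac level in WT. Levels of this size were read as background. Another isoform of this kind, Cox8b, had 1 UMI in WT and 3 UMIs in KO cardiac muscle, next to 2246 and 2286 UMIs of the Cox8 family, so at this stage and depth it was barely detectable.

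Promoter sequences of the isoform pair Cox7a1 and Cox7a2, and of Cox6a1, are shown to set a muscle form beside widespread forms. They were taken from RefSeq (GRCm38.p6), 250 bases upstream of the start annotated there, 5′ to 3′ on the strand of the gene, at chr7:30183921-30184170 (plus strand) for Cox7a1, chr9:79759854-79760103 (minus strand) for Cox7a2 and chr5:115348959-115349208 (minus strand) for Cox6a1. Capitals mark matches on either strand to the motifs of 5 factors: that of NRF1, a regulator of nuclear genes for mitochondrial proteins, was searched as GCGCNTGCGC and that of YY1, a widespread zinc finger factor, as AAGATGGC. The motif of ETS family factors was searched as CCGGAAG, and that of MEF2, a muscle factor, by its usual consensus. For GATA factors, which act in heart and blood among other tissues, the letters were AGATAA.
Cox7a1: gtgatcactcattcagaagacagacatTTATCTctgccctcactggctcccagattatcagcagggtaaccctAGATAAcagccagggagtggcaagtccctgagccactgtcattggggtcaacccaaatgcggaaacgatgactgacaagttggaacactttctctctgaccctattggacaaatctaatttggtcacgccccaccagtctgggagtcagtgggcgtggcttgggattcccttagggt
Cox7a2: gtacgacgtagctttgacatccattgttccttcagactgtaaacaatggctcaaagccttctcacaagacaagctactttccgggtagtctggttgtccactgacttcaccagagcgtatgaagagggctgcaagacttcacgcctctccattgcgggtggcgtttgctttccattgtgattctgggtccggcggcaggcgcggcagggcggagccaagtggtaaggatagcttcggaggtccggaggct
Cox6a1: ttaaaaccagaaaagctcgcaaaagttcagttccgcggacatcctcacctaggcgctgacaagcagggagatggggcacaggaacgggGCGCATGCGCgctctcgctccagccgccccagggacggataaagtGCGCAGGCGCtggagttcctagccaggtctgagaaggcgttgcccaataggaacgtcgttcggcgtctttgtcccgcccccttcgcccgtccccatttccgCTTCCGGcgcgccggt

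In GENCODE vM21, from which gene positions are given, all 3 genes start inside these windows, so the bases at the 3′ end of each, with the ETS match of Cox6a1, lie within the gene as annotated there. In these windows Cox6a1 held 2 NRF1 matches and 1 ETS match, Cox7a1 held 2 GATA matches, and Cox7a2 held none of the letters searched. Of the 86 genes, 72 had a promoter in the table. For the shares, a match anywhere in any promoter entry of a gene was counted. Such a match need not lie within the 250 bases upstream. An NRF1 match was present in 17 of these 72 (23.6%) and in 5.19% of 27025 genes. ETS matches were present in 16 (22.2%) and in 9.93% of genes, YY1 matches in 11 (15.3%) and 3.19%, and GATA matches in 6 (8.33%) and 12.7%. MEF2 matches were present in 0 of the members and in 3.70% of genes. A match describes letters in a window and is not a bound site. The 14 members without an entry included Cox6a2, Cox4i2, Cox6c and Uqcrb.

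Cox6b2, known as the testis form of subunit VIb, was highest in erythroid cells, with 63 UMIs or 54.6 CPM in WT and 65 UMIs or 122 CPM in KO. It made up 9.66% of the Cox6b UMIs of that class in WT (interval 7.50% to 12.2%) and 14.6% in KO (11.4% to 18.2%). In endothelial cells the share was 0.370% in WT and 0.709% in KO. The next classes overlapped the erythroid class in their intervals: arch mesenchymal neural crest had 6.25% in WT (1.31% to 17.2%, from 3 UMIs), and sclerotome and paraxial mesoderm had 5.50% in KO (2.05% to 11.6%, from 6 UMIs). After thinning, 4.10% of WT and 8.53% of KO erythroid cells had a UMI, against 0.209% and 0.525% of endothelial cells.

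Cox4i2, the form of subunit IV known from oxygen-sensitive tissues such as lung, had its highest CPM in surface ectoderm, from few UMIs. It had 10 UMIs there in WT (39.8 CPM) and 6 in KO (19.8 CPM), or 4.52% (2.19% to 8.16%) and 2.55% (0.943% to 5.47%) of the subunit IV UMIs. In cardiac muscle the share was 1.62% (1.13% to 2.26%) in WT and 1.14% (0.688% to 1.78%) in KO. After thinning, 1.96% of WT surface ectoderm cells and 2.17% of WT cardiac muscle cells had a UMI, against 2.73% and 1.41% in KO, so the order of these classes was not the same at equal depth. In neural tube progenitors 0 of 615 WT cells had a UMI, which allows up to 0.488% of cells with a UMI, and 4 of 592 KO cells had one.

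Ndufa4l2, a relative of Ndufa4 known to respond to low oxygen, had 34 UMIs in WT and 39 in KO, of which 7 and 10 lay in neurons. Its level in neurons was 37.3 CPM in WT and 42.8 CPM in KO, the highest of any class in both libraries. The 7 WT UMIs came from 3 cells and the 10 KO UMIs from 10 cells. Its share of the pair was 4.55% in WT (1.85% to 9.14%) and 5.18% in KO (2.51% to 9.32%). In erythroid cells it had 0 UMIs in both libraries.

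The 3 genes of the ATP synthase ring encode the same mature c subunit, so their mix does not alter the protein made. Atp5g1 supplied 44.6% of ring UMIs over all WT cells and 43.2% over all KO cells, Atp5g3 36.1% and 37.5%, and Atp5g2 19.3% and 19.4%. Migrating neural crest had the highest Atp5g1 share of any WT class, 56.2% (53.7% to 58.7%), and a share of 45.7% (43.1% to 48.4%) in KO. Its Atp5g1 level there was 1614 CPM in WT and 1185 CPM in KO, and the Atp5g3 share was 26.6% in WT and 34.1% in KO. In cardiac muscle the Atp5g1 share was 48.6% in WT and 49.6% in KO, with overlapping intervals.

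**Figure D5:**
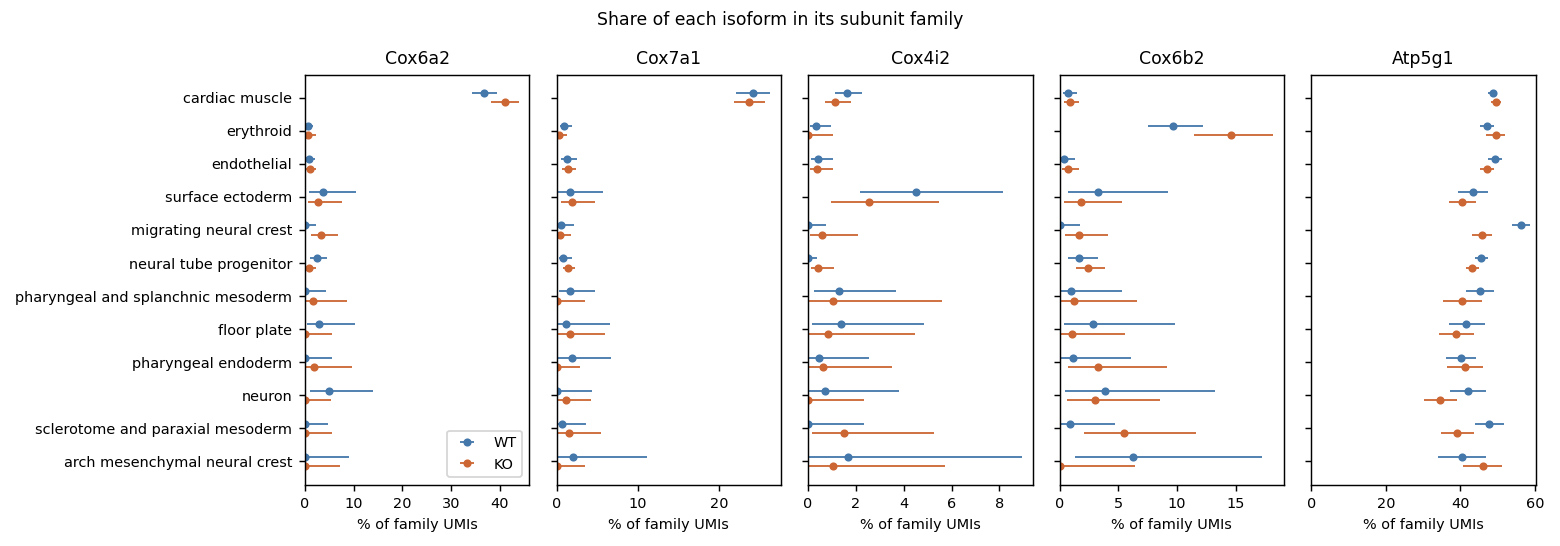
Share of an isoform in the UMIs of its subunit family (percent, x axis from 0, scales differ between panels) in 12 classes, WT in blue and KO in orange; bars are Clopper-Pearson intervals of 95%. Cox6a2 and Cox7a1 are highest in cardiac muscle, Cox6b2 is highest in erythroid cells with intervals that overlap another class, and Atp5g1 is at 56.2% in WT migrating neural crest and 45.7% in KO.

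Of the 84 members with at least 200 UMIs over both libraries together, the 5 with the highest ratio of top to median class in WT were Cox6a2, Cox7a1, Cox6b2, Cox4i2 and Atp5s, a description that rests on few UMIs outside the top class. Atp5s had its highest value in sclerotome and paraxial mesoderm, at 29.5 CPM from 8 UMIs (interval 12.7 to 58.2), which overlapped the next class, and the median class had 11.8 CPM. Cox7a2l, a relative of Cox7a2 that has been linked to supercomplexes of III and IV, had 152 CPM in WT and 142 CPM in KO (log2 ratio -0.10, interval -0.18 to -0.03). Cox7b, a subunit with no second isoform analysed here, had 384 CPM in WT and 447 CPM in KO (0.22, 0.18 to 0.26). In all, 61 of 83 members in WT and 69 of 82 in KO were highest in cardiac muscle, beside 7.95% of 9194 genes in WT and 8.2% of 8765 genes in KO.

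Other gene lists of oxidative metabolism differed in the sign of their ratio between the libraries. The 4 subunits of complex II, which links the citric acid cycle to the chain, summed to 673 CPM in WT and 670 CPM in KO (log2 ratio -0.01, interval -0.04 to 0.03), and 0 of 4 were 25% higher or 20% lower. Of the cytochromes, Cycs had 931 CPM in WT and 1096 CPM in KO (0.24), and Cyc1 had 243 and 197 CPM (-0.31). The 16 genes of the citric acid cycle and pyruvate dehydrogenase had a median of -0.13, with 0 at least 25% higher and 1 at least 20% lower, Pdhb. The 6 carriers and porins had a median of -0.13 and 0 past these limits in either direction.

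Of 32 measured assembly factors outside the prefixes, 3 were at least 25% higher and 5 at least 20% lower, with a median of 0.03. Of 77 mitochondrial ribosomal proteins, 7 were higher and 2 lower, with a median of 0.07 and a summed ratio of 0.12 (0.11 to 0.13). Over all genes the shares were 3.86% higher and 10.6% lower. The 14 measured regulators of mitochondrial gene expression had a median of -0.12, with 0 higher and 2 lower. The 3 other ATP synthase proteins had a summed ratio of 0.22 (0.20 to 0.24), with 1 higher, the inhibitor Atpif1 (614 CPM in WT and 767 CPM in KO, 0.32), and 0 lower.

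In WT cardiac muscle over all other cells, complex II had 2 of 4 genes at least 1.5-fold higher, the cytochromes 2 of 2, the citric acid cycle and pyruvate dehydrogenase genes 5 of 16, and the carriers and porins 2 of 6. Over all genes 10.6% were at least 1.5-fold higher and 19.6% at least 1.5-fold lower. Mitochondrial ribosomal proteins had 5 of 77 higher and 1 lower, and assembly factors 3 of 32 higher and 0 lower. Regulators had 1 of 12 higher and 3 lower, with a median log2 fold of -0.30. The 3 lower ones were Myc (0.370-fold), Polrmt (0.536-fold) and Nrf1 (0.592-fold). The higher regulator was Ppargc1a, a coactivator of mitochondrial genes in muscle, with 121 CPM in cardiac muscle and 6.61 CPM elsewhere, and it had enough UMIs to be counted through its cardiac level. The regulators Ppargc1b, Esrrg and Esrra had too few UMIs to be counted, and their WT levels were 36.9, 16.5 and 15.9 CPM in cardiac muscle and 4.32, 1.46 and 7.91 CPM elsewhere.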

How the data were processed

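Tissue from the mid otic placode to the fourth somite was profiled with 3′ droplet libraries, 1 per genotype. The methods name barcoding, pooling and demultiplexing with MULTI-Seq, and a map from cells to embryos was not used here. Per the processing notes, the authors used Cell Ranger 1.3.1, Scanpy and mm10. The methods name a human genome with the reporter as reference, whereas the deposited symbols are those of mouse. The authors removed mitochondrial and ribosomal UMIs and used an upper UMI limit and a caller against doublets, though whether the caller was run before deposit is not stated. No doublet caller was run here.

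The deposited values are a score: the square root of the UMI count of a gene scaled to a common cell total. Each value was squared and divided by the smallest nonzero square of its cell, and 100% of nonzero values were whole within 0.01. With 1 library per genotype no model was fitted and no p-value was computed. UMIs were summed over libraries and classes with Python 3.11.15, numpy 2.4.6 and scipy 1.17.1. A cell entered a class with UMIs of at least 4 different markers of its list (8 for cardiac muscle and 6 for erythroid cells, since some of their markers were also found in many other cells) and more than of any other list. These minimums were set after seeing marker counts and leading genes, not member values. Leading genes needed 30 UMIs, with 10 CPM added to each side.

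The members, marker lists and gene lists were chosen with earlier results of these data known. Members were named as isoforms, as the 10 highest in level, as the 5 highest and 5 lowest ratios, as the 10 largest cardiac folds and as the 5 most uneven over classes; others named were chosen after their values were seen. A gene that the rule names is not reported here. Where a count was 0, up to 3 counts were taken as possible. The interval code was tested on simulated counts. Alternatives were other scalings, depth limits, UMI minimums and gates. Positions are from GENCODE vM21 (GRCm38).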

Additional observations from a re-analysis of the deposited data

Results flagged for a closer look

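The summed ratio of KO over WT for the 3 genes of the ATP synthase ring had opposite signs in different cell classes, with counting intervals that did not include 0. The log2 ratio was 0.36 in cardiac muscle, 0.10 in endothelial and 0.17 in erythroid cells, and it was -0.15 in migrating neural crest and -0.24 in the floor plate. The difference between these classes was not tested, since each genotype had 1 library.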

How the results depend on the processing

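All alternatives were computed on the same 2 libraries, and causes of a shift were not tested. With median of ratios and trimmed mean scaling, in that order, log2 ratios (KO over WT) were 0.28 and 0.28 for all members, 0.28 and 0.27 for complex I, 0.36 and 0.36 for complex III, 0.36 and 0.36 for complex IV, 0.19 and 0.18 for complex V, and 0.27 and 0.27 for the assembly factors, and 31 members were at least 25% higher with either. In cells of 1000 to 3000 UMIs complex IV stood at 0.27 and complex V at 0.14, and 2 members were at least 20% lower. As a mean over cells complex V stood at 0.13. Without the member with most UMIs complex III was at 0.21, complex IV at 0.25 and complex V at 0.14.

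Within classes the ratio of all members was 0.36 in cardiac muscle with 1 marker fewer and 0.46 with median of ratios scaling. With markers counted after thinning and with that scaling it was 0.27 and 0.26 in endothelial and 0.23 and 0.37 in erythroid cells. In neural tube progenitors it was 0.20 with 1 marker more, 0.25 with 1 fewer, 0.19 after thinning and 0.25 with the scaling. The sign turned in sclerotome and paraxial mesoderm for all members (-0.0053 with 1 marker more, -0.047 after thinning) and complex IV (-0.24 after thinning), and in surface ectoderm for all members (-0.014) and complex I (-0.040) after thinning.

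The log2 level of cardiac muscle over the other described classes was 0.59 in WT and 0.79 in KO. With 1 marker more, 1 fewer, thinned markers, median of ratios scaling and a mean over cells it was 0.61, 0.55, 0.61, 0.67 and 0.57 in WT and 0.81, 0.73, 0.85, 0.92 and 0.76 in KO. The count of members at least 1.5-fold lower in cardiac muscle was 0 in WT with at least 1000 UMIs, and 0 in KO with 1 marker more, 1 fewer, the scaling, a mean over cells or at least 1000 UMIs. The Cox6a2 share in WT cardiac muscle was 39.8% after thinning. Among the other values recomputed, 266 moved by less than their counting interval and 34 by more. No paired analysis was possible because each genotype had 1 library and no result came from a test.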
